A study of Mus musculus with 2 samples.

Results

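The genes described here are *Gip*, which encodes the incretin hormone GIP, and 9 genes of class B G protein-coupled receptors of the secretin type, namely *Glp1r*, *Gipr*, *Gcgr*, *Glp2r*, *Sctr*, *Vipr1*, *Vipr2*, *Adcyap1r1* and *Ghrhr*. They were chosen by name, as the genes with a probe set that carries only that gene symbol on the array. All 10 were measured, by 11 probe sets, among 19938 genes in all. In the E15.5 pancreas none of the 10 genes was at least 1.2-fold different between *Mafk*-Tg and WT embryos, where 18.4% of all genes were. The values of 9 of the 10 genes, all but *Glp2r*, lay within 1 log2 unit of the array medians. The furthest apart were *Gcgr*, with a log2 difference (*Mafk*-Tg minus WT) of -0.25, and *Adcyap1r1*, with 0.19.

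Whole pancreata were taken at E15.5, during the secondary transition, when endocrine cells expand. *Mafk*-Tg embryos carried a cDNA of murine *Mafk* with a FLAG tag, driven by the rat insulin I promoter, and WT embryos did not. The transgenic line was made in BDF1 eggs, and both genotypes were kept on an ICR background. The RNA went onto Affymetrix gene expression arrays. Each genotype has 1 array, and the series' description gives 3 pancreata per genotype. Whether an array holds a pool of these pancreata or a single one is not stated, so each value stands for an unknown number of embryos. The insulin promoter restricts the transgene to β-cells, a small share of the RNA in a whole pancreas at this age. A change in the number of cells that carry a receptor and a change in its RNA per cell therefore cannot be told apart here.

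Class B receptors bind peptide hormones with a large extracellular domain and pass the signal mainly through the stimulatory G protein to adenylyl cyclase, which makes cAMP. In islets, cAMP from the GLP-1 and GIP receptors raises insulin secretion when glucose is high, which is why these hormones are called incretins. The glucagon receptor is best known from liver, the secretin receptor from ducts, and the receptors of VIP and PACAP from nerves, smooth muscle and immune cells. MAFK is a small MAF protein. It cannot activate genes on its own.

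The values are on the log2 scale as the authors normalized them, with array medians of 6.01 in *Mafk*-Tg and 6.01 in WT, and no further scaling was applied. *Mafk* itself had 7.0 in *Mafk*-Tg and 6.75 in WT, a difference of 0.25 that is just short of 1.2-fold. Sex-linked genes separated the arrays. *Xist* had 11.30 in *Mafk*-Tg and 4.40 in WT, while the Y-linked *Eif2s3y*, *Uty* and *Kdm5d* had differences of -5.68 to -3.93. This is a female pattern in *Mafk*-Tg and a male pattern in WT. Embryo sex and genotype therefore cannot be told apart, for any gene. Of the 10 genes, 0 are X-linked, which does not remove this limit. All 10 measured acinar markers, which define most of the pancreatic epithelium, lay above the array medians. With 1 array per genotype no replicate error could be estimated and no test was run, so their number limits how precise any value is. Differences are therefore set beside a robust SD, which is the scaled median deviation of the differences of all probe sets of similar mean level, in 10 equal bins of level.

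**Figure D1:**
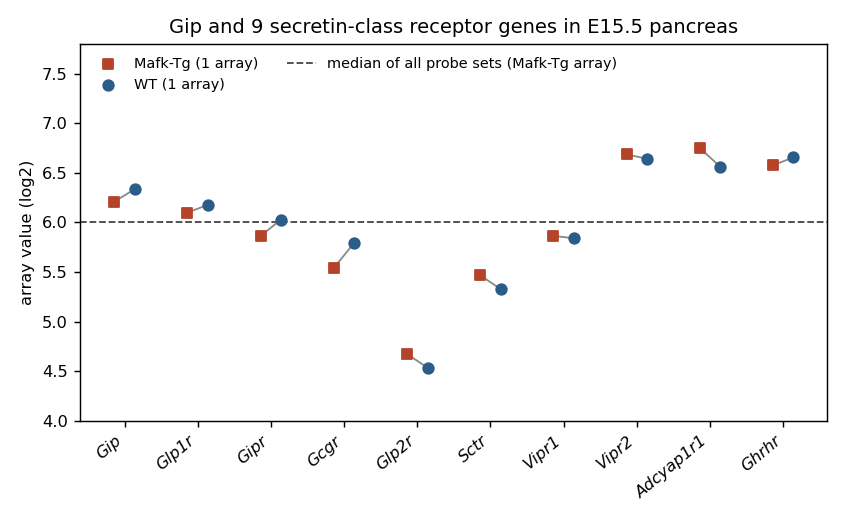
Array values (log2, vertical axis) of *Gip* and the 9 receptor genes in *Mafk*-Tg (squares) and WT (circles), 1 array each, with the median of all probe sets as a dashed line. The values of each gene lie close together, from 4.53 for *Glp2r* in WT to 6.75 for *Adcyap1r1* in *Mafk*-Tg.

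The incretin axis comprises the ligand gene *Gip* and the receptor genes *Gipr* and *Glp1r*. *Gip*, best known as a hormone of intestinal K cells, had a log2 value of 6.21 in *Mafk*-Tg and 6.34 in WT. This is 0.20 and 0.33 above the median of all probe sets of each array, and the difference was -0.13. *Gipr*, the receptor of GIP, had 5.86 in *Mafk*-Tg, 0.14 below the array median, and 6.03 in WT, 0.02 above it. Its difference of -0.16 is a ratio of 0.892. *Glp1r*, the receptor of glucagon-like peptide 1, had 6.10 in *Mafk*-Tg and 6.18 in WT, a difference of -0.08. All 3 values lay lower in *Mafk*-Tg, each by less than the robust SD of probe sets of similar level, which was 0.22 for *Gip* and *Glp1r* and 0.25 for *Gipr*.

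The receptors of the proglucagon peptides glucagon and GLP-2 had opposite signs. *Gcgr*, the glucagon receptor, had 5.54 in *Mafk*-Tg and 5.80 in WT. Its difference of -0.25, a ratio of 0.839, is just short of 1.2-fold (0.26 on the log2 scale) and about as large as the robust SD of 0.25 at its level. Of the probe sets in the same level bin, 33.2% differed by more than *Gcgr* in either direction. *Glp2r*, the receptor of glucagon-like peptide 2, had 4.67 in *Mafk*-Tg and 4.53 in WT, a difference of 0.14. It was the only one of the 10 genes more than 1 log2 unit below the array medians, by 1.34 in *Mafk*-Tg and 1.47 in WT.

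*Sctr*, *Vipr1*, *Vipr2* and *Adcyap1r1* encode the receptors of secretin, of VIP and of PACAP. *Sctr*, through which secretin makes duct cells release bicarbonate, had 5.47 in *Mafk*-Tg and 5.33 in WT, a difference of 0.14. *Adcyap1r1*, which encodes the PACAP receptor PAC1, had 6.75 in *Mafk*-Tg and 6.56 in WT. Its difference of 0.19, a ratio of 1.14, was the highest of the 10 genes and was within the robust SD of 0.19 at its level, where 33.8% of probe sets differed by more. *Vipr2*, a receptor shared by VIP and PACAP, had 6.69 in *Mafk*-Tg and 6.64 in WT, a difference of 0.04. All 4 of these receptor genes had values above 0 for the difference, and 0 of them reached 1.2-fold. For *Vipr1* this is the mean of 2 probe sets with opposite signs.

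*Vipr1* was the only one of the 10 genes with more than 1 probe set, and its 2 probe sets had opposite signs. One had 6.0 in *Mafk*-Tg and 5.87 in WT, a difference of 0.14. The other had 5.73 in *Mafk*-Tg and 5.81 in WT, a difference of -0.09. Their mean difference was 0.03. The gap of 0.23 between these measurements of the same gene, on the same arrays, was larger than the absolute difference between genotypes of every one of the 10 genes except *Gcgr*. Among the 287 genes of the same range of levels with more than 1 probe set, the median gap was 0.20.

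*Ghrhr*, the receptor of growth hormone-releasing hormone and best known from the pituitary, had 6.58 in *Mafk*-Tg and 6.66 in WT, a difference of -0.08. It lay above 59.3% of all probe sets in *Mafk*-Tg and above 60.7% in WT. Probe sets differ in affinity, so a value near the array median does not tell whether a gene is expressed, and levels of the 10 genes are not ranked as amounts of RNA. As a description, chosen after the values had been seen, the 1015 olfactory receptor genes measured had medians of 3.64 in *Mafk*-Tg and 3.67 in WT. Of the 10 genes, 9 lay above 95% of these olfactory genes in both arrays, *Ghrhr* among them, and 1, *Glp2r*, did not. No detection calls were used, so whether each receptor is expressed in this tissue was not determined.

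**Figure D2:**
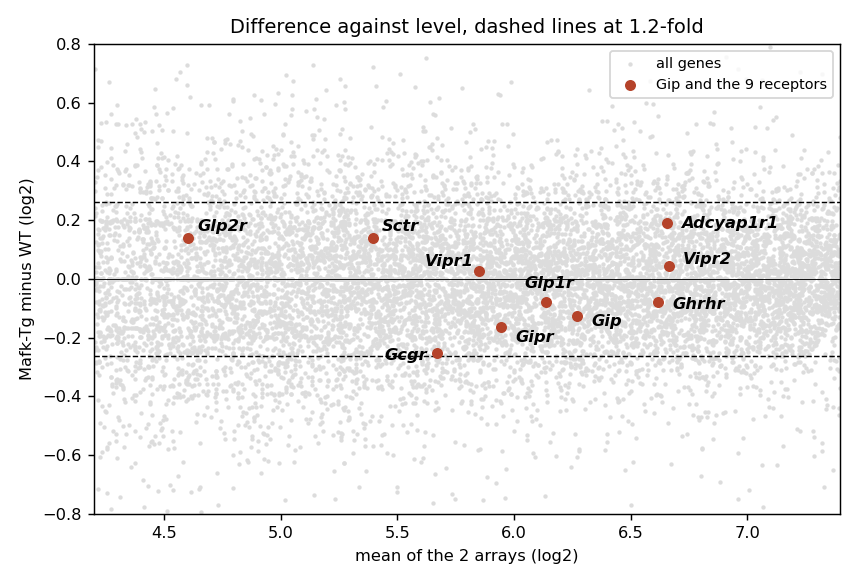
Log2 difference (*Mafk*-Tg minus WT, vertical axis) against the mean log2 value of the 2 arrays (horizontal axis) for *Gip* and the 9 receptor genes (red, labelled) and all genes within the axes (grey), with dashed lines at 1.2-fold. All 10 labelled genes lie between the dashed lines, from -0.25 for *Gcgr* to 0.19 for *Adcyap1r1*.

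Over the 10 genes, 0 lay 1.2-fold or more above WT in *Mafk*-Tg and 0 lay 1.2-fold or more below. Among all 19938 genes, 7.96% were at least 1.2-fold higher and 10.5% lower, 18.4% in either direction. Within the range of mean levels that the 10 genes span, 4.60 to 6.66, 9.07% of 7013 genes were higher and 11.9% lower, 21.0% in all. The count of 0 of 10 is thus below these shares, but a list of 10 genes on 1 array per genotype does not show that the receptors are the same in both genotypes. By sign alone, 5 of the 10 had a difference above 0 and 5 below, with a median of -0.03, beside -0.01 over all genes and -0.01 over the genes of the same levels. The median was 0.03 over the 9 receptors without *Gip*, and -0.08 over the 5 of the 10 genes at or above the median level, so its sign depends on which members are counted. The 5 below 0 were *Gip*, *Glp1r*, *Gipr*, *Gcgr* and *Ghrhr*. *Vipr1*, whose probe sets had opposite signs, was counted above 0 by their mean. Of the 10 differences, 9 were smaller than the robust SD of their level bin, and that of *Gcgr* was 1.03 times it. At a cutoff of 1.1-fold, 3 of the 10 genes were higher and 2 lower, against 20.8% and 25.7% of all genes, and at 1.5-fold 0 were higher and 0 lower, against 0.697% and 1.27% of all genes.

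The other ligand genes of the family were also close together, apart from glucagon. *Gcg*, which encodes glucagon and both glucagon-like peptides, had 11.96 in *Mafk*-Tg and 11.68 in WT. Its difference of 0.28 passed 1.2-fold, and the robust SD at its level was 0.13. In the same *Mafk*-Tg array the receptor genes of its products had differences of -0.25 for *Gcgr*, -0.08 for *Glp1r* and 0.14 for *Glp2r*, none of which reached the cutoff. *Sct*, which encodes secretin, had 5.36 in *Mafk*-Tg and 5.52 in WT. *Vip* had 4.44 in *Mafk*-Tg and 4.54 in WT. *Adcyap1*, which encodes PACAP, had 5.19 in *Mafk*-Tg and 5.09 in WT, and *Ghrh* had 5.57 in each. These 4 genes lay below the median level of all probe sets, where the robust SD was 0.25 to 0.29. Of the 6 ligand genes measured, *Gip* included, 1 was higher and 0 were lower.

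The remaining class B receptors, of calcitonin, of corticotropin-releasing hormone and of parathyroid hormone, together with the RAMP proteins that change the ligand preference of some of them, made up a list of 9 measured genes. Of these, 0 were at least 1.2-fold higher and 0 lower, with a median of -0.12. *Calcr*, the calcitonin receptor, had 4.89 in *Mafk*-Tg and 4.63 in WT, a difference of 0.26 that is just under the cutoff. *Calcrl*, the receptor of CGRP and adrenomedullin, had 8.38 in *Mafk*-Tg and 8.59 in WT, a difference of -0.21. Its partner *Ramp2* had 7.54 in *Mafk*-Tg and 7.76 in WT, a difference of -0.22. Both are best known from endothelium, where 10 of 10 markers had a difference below 0, with a median of -0.12 and a summed linear signal of 4077 in *Mafk*-Tg and 4457 in WT. The part of endothelial RNA in these values was not tested. *Ramp3* had -0.21, *Pth2r* -0.20, *Crhr2* -0.12, *Crhr1* -0.12, *Pth1r* -0.09 and *Ramp1* 0.01 as log2 differences.

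Genes that act after these receptors were described with fixed lists. Among 14 measured genes of G proteins and adenylyl cyclases, 0 were at least 1.2-fold higher and 1 was lower, *Adcy7*, with 6.85 in *Mafk*-Tg and 7.18 in WT. Among 13 effectors of cAMP, such as the subunits of protein kinase A and the factor CREB, 0 were higher and 0 lower, with a median difference of -0.08. *Gnas*, *Prkaca* and *Rapgef4* had no probe set of exactly 1 symbol. The medians of both lists, -0.03 and -0.08, were close to that over all genes.

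Among 15 genes of receptor desensitisation and cAMP breakdown, 3 were at least 1.2-fold lower in *Mafk*-Tg and 0 higher, where 10.5% of all genes were lower and 7.96% higher. *Arrb1* and *Arrb2*, which encode the β-arrestins that uncouple and internalise these receptors, had log2 differences of -0.43 and -0.42. *Grk5*, a kinase that phosphorylates activated receptors, had -0.34. The phosphodiesterase genes of the list, which break down cAMP, were all within 1.2-fold. Of 7 processing and breakdown genes of the peptide side, 5 had a difference above 0, with a median of 0.06. At 1.2-fold, 0 of these 7 were higher and 1 was lower. This was *Mme*, which encodes the peptidase neprilysin, with 8.48 in *Mafk*-Tg and 8.81 in WT.

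Of 12 genes that CREB can induce, 6 were at least 1.2-fold lower in *Mafk*-Tg and 0 were higher, with a median of -0.25, against 10.5% of all genes lower. Of the 12, 5 lay below the median level of all probe sets, where 27.7% of genes passed 1.2-fold in either direction. *Fos* had 5.51 in *Mafk*-Tg and 5.96 in WT, a difference of -0.45. *Fosb* had -0.42, *Nr4a1* -0.38 and *Dusp1* -0.33. The first 3 encode transcription factors and *Dusp1* a phosphatase of MAP kinases, and all 4 are also immediate early genes that answer to many stimuli. Of the 12 genes, 2 had a difference above 0, *Irs2* with 0.26, just under the cutoff, and *Sik1* with 0.07. Leukocyte markers were lower in the same array, 10 of 13 with 0 higher and a median of -0.54, and their summed linear signal was 4443 in *Mafk*-Tg and 7140 in WT. The part of leukocyte RNA in the lower values of the CREB target, arrestin and *Adcy7* genes was not tested.

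Of 10 ligand genes of the other class B receptors, 0 were higher and 2 were lower. *Adm*, which encodes the vasodilator adrenomedullin, had 5.06 in *Mafk*-Tg and 5.53 in WT, and *Crh* had 2.93 in *Mafk*-Tg and 3.33 in WT, low on the scale. Among 16 receptors of other islet and gut signals, 3 were higher and 3 lower, against 18.4% of all genes in either direction. Of the 16, 11 lay below the median level of all probe sets, where 27.7% of genes passed 1.2-fold. *Gpr119*, a lipid receptor of islet and gut endocrine cells that is X-linked, had 5.86 in *Mafk*-Tg and 5.41 in WT. *Cckbr*, *Npy4r* and *Galr1* had log2 differences of -0.47, -0.39 and 0.38. All 4 of these genes lay below the median level. *Sstr1*, also past the cutoff with -0.27, lay below it too. *Cckar*, also past the cutoff, lay above it, with 11.00 in *Mafk*-Tg and 10.73 in WT. This gene is also among the acinar markers. Its difference was 0.27, where the robust SD was 0.13.

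**Figure D3:**
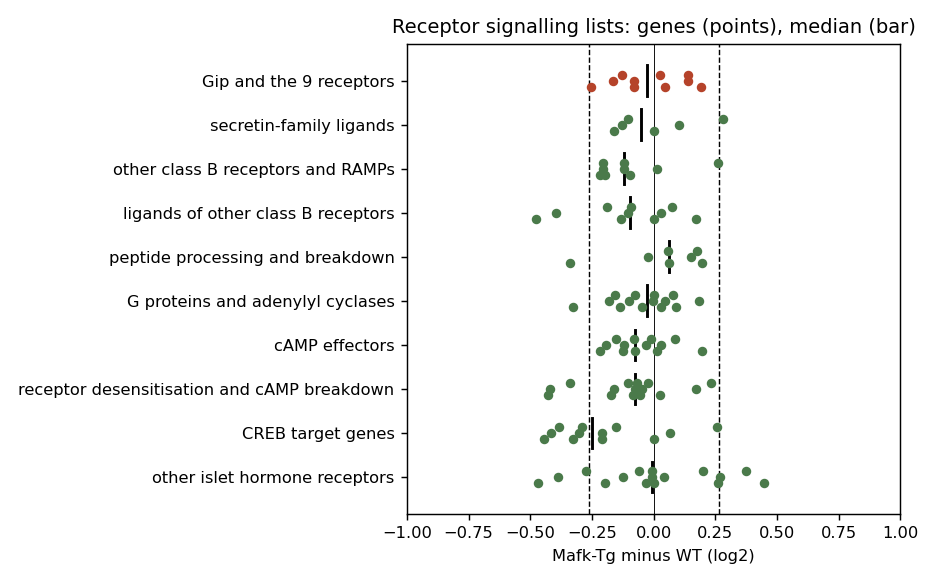
Log2 difference (*Mafk*-Tg minus WT, horizontal axis) of each measured gene (points) and the median (bar) of *Gip* with the 9 receptors and of 9 lists around them, 1 array per genotype, with dashed lines at 1.2-fold. *Gip* and the 9 receptors have a median of -0.03, and the CREB target genes have the lowest median, -0.25.

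Markers of islet cells, which carry the incretin receptors, had medians further from 0 than *Glp1r* and *Gipr*. Of 9 measured β-cell markers, 6 were at least 1.2-fold lower in *Mafk*-Tg and 0 higher, with a median of -0.46 and a summed linear signal of 2223 in *Mafk*-Tg and 2373 in WT. *Iapp*, the amylin gene, made up 1307 and 1161 of these sums, and without it they were 916 in *Mafk*-Tg and 1212 in WT. *G6pc2*, the islet glucose-6-phosphatase, had the lowest difference of them, -1.13. *Glp1r* and *Gipr*, both receptors of β-cells, had -0.08 and -0.16. Of 9 markers of other islet endocrine cells, 5 were higher and 0 lower, with a median of 0.27 and a summed linear signal of 7468 in *Mafk*-Tg and 5973 in WT. The receptor values were not separated from these shifts, since each genotype has 1 array.

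Hepatocyte markers were lower for 5 of 12 genes and higher for 1, *Ttr*, which is also among the markers of other islet endocrine cells. They had a median of -0.20 and a summed linear signal of 4321 in *Mafk*-Tg and 5090 in WT. *Apob* and *Apoa1*, which encode apolipoproteins, had the lowest differences of them, -0.94 and -0.59. *Alb*, the albumin gene, had 10.66 in *Mafk*-Tg and 11.23 in WT, and *Gcgr*, which hepatocytes express, lay lower in the same array by 0.25 on the log2 scale. The part of hepatocyte RNA in the value of *Gcgr* was not tested. Duct markers other than *Sctr* were higher for 1 of 8 genes and lower for 1, with a median of 0.13, beside the *Sctr* difference of 0.14. Their summed linear signal was 2987 in *Mafk*-Tg and 2652 in WT. Nerve and glia markers had a median of 0.03, with 1 of 11 higher and 1 lower, beside 0.19 for *Adcyap1r1*. Their summed linear signal was 2670 in *Mafk*-Tg and 2715 in WT. Most of this sum came from 1 gene, *Fabp7*, with log2 values of 10.56 in *Mafk*-Tg and 10.70 in WT. Of 12 markers of smooth muscle and mesenchyme, 0 were higher and 2 lower, with a median of -0.20 and a summed linear signal of 9031 in *Mafk*-Tg and 10374 in WT, beside 0.04 for *Vipr2*.

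Erythroid markers were lower for 7 of 11 genes and higher for 2, with a median of -0.44 and a summed linear signal of 2159 in *Mafk*-Tg and 2869 in WT. Acinar markers were higher for 2 of 10 and lower for 0, with a median of 0.22 and a summed linear signal of 38697 in *Mafk*-Tg and 36225 in WT. Of 13 markers of intestinal and gastric epithelium, the tissue in which *Gip* is best known, 2 were higher and 1 lower, with a median of 0.04 and a summed linear signal of 2108 in *Mafk*-Tg and 739 in WT. *Cym*, the chymosin gene that makes up most of this difference in signal, had 10.51 in *Mafk*-Tg and 7.17 in WT, while *Gip* had a difference of -0.13. No value on either array was below 0.51, so the absence of markers at 0 does not show that all were detected.

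**Figure D4:**
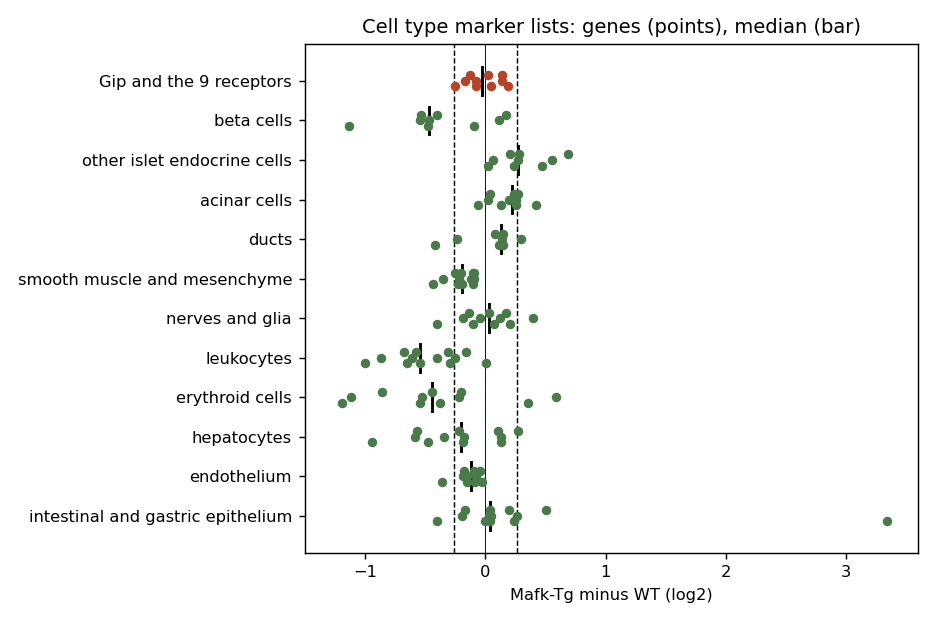
Log2 difference (*Mafk*-Tg minus WT, horizontal axis) of each measured gene (points) and the median (bar) of *Gip* with the 9 receptors and of 11 lists of cell type markers, 1 array per genotype, with dashed lines at 1.2-fold. *Gip* and the 9 receptors lie within the dashed lines, while leukocyte and β-cell markers have medians of -0.54 and -0.46 and *Cym* lies at 3.34.

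MAFK binds the MAF recognition element (MARE), and CREB binds the cAMP response element (CRE), so the promoters of the 10 genes were searched for both. RefSeq windows of GRCm38.p6 were matched for 7 of the 10 genes, and the 250 bases before each start were read on both strands. The windows of *Gipr*, *Sctr* and *Ghrhr* were not matched. The full MAREs, in which the half-site TGCTGA and its reverse complement flank C or CG, were found in 0 of the 7 windows. They were in 1 and 0 of all 32851 windows of this length. The full CRE, TGACGTCA, was found in 0 of 7 and in 1.55% of all windows. The MARE half-site TGCTGA, which is part of both full MAREs, was found in 1 of 7, *Glp2r*, and in 16.1% of all windows. The CRE half-site TGACG, part of the full CRE and of the MARE with CG, was found in 1 of 7, *Vipr1*, and in 17.8% of all windows. The 120 bases before the start of these genes and of *Gcgr*, which has the largest difference in size and no match, are shown to set the matched letters (capitals) beside a window without them. They are the minus strand of chr11:67771154-67771273, the plus strand of chr9:121642596-121642715 and the plus strand of chr11:120530607-120530726.
Glp2r: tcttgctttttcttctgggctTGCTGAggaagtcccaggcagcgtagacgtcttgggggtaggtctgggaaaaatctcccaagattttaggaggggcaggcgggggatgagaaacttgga
Vipr1: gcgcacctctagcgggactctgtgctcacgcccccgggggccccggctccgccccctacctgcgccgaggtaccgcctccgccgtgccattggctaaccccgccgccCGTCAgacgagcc
Gcgr: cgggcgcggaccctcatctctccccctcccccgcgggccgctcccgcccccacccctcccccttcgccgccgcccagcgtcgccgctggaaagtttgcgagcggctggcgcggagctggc

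The half-site of *Glp2r* starts 99 bases before the gene's start, on the gene's own strand. That of *Vipr1* starts 13 bases before it and reads on the opposite strand, so it appears as CGTCA. *Glp2r* had a log2 difference of 0.14 and *Vipr1* one of 0.03, and the 5 matched genes without either half-site, *Gip*, *Glp1r*, *Gcgr*, *Vipr2* and *Adcyap1r1*, had -0.25 to 0.19. For each half-site, 1 of the 7 windows searched had a match, a share near that of all windows. A match of letters is a description and does not show that a factor binds there.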

How the data were processed

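RNA of whole E15.5 pancreata was measured on 1 *Mafk*-Tg and 1 WT array. The authors deposited log2 values per probe set, normalized and summarized with Affymetrix Expression Console. Its version and settings were not given in the sources read here. Of 35556 probe sets, the platform's gene table gives 1 symbol for 21789, several for 1621 and none for 12146. Gene values are means over the probe sets with 1 symbol, and the difference is *Mafk*-Tg minus WT. The 1.2-fold cutoff is that of the study. No test was run, since each genotype has 1 array. The 10 genes and all lists were chosen with earlier results of these data known, and markers of a list that are among the 10 genes were left out of its counts. Named genes are the 10 genes, all ligands and class B receptors, and up to 4 genes of each other list among those with the largest differences past the cutoff. *Ttr*, *Iapp*, *Cckar*, *Sstr1*, *Irs2*, *Sik1* and *Fabp7* were added to these once their values were known. The alternatives were quantile normalization, equal array medians, loess normalization with a span of 0.3, the brightest probe set, probe sets with several symbols, cutoffs of 1.1-fold and 1.5-fold, and leaving out genes below the median level. The gene step and the scalings were checked on simulated arrays with the same noise at all levels. The simulated differences were larger than those of the 10 genes, so the check does not cover differences of their size. Promoter windows are from RefSeq, GRCm38.p6. Tools were pandas 2.3.3 and numpy 2.4.6 under Python 3.11.15, with statsmodels 0.14.6 for loess and matplotlib 3.10.9 for plots.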

Additional observations from a re-analysis of the deposited data

How the results depend on the processing

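The 10 genes kept their sign under all 5 alternatives of scaling and probe set, and no difference moved by as much as the robust SD at its level. Of the 10 genes, 0 are on a probe set with several symbols, so adding these probe sets could not change their values. The brightest probe set could change only *Vipr1*, the only gene with more than 1. *Vipr1* moved most, with a log2 difference of 0.14 from its brighter probe set, against 0.03 from the mean of both. Its dimmer probe set, with -0.09, was not used alone. The counts of 0 higher and 0 lower were also found under each of these alternatives. At 1.5-fold and without genes below the median level, counts of 0 follow from those at 1.2-fold and add no check. The median of the 10 genes was -0.03, -0.03 to -0.02 under the scaling and probe set alternatives, and -0.08 without genes below the median level, which leaves 5 genes. At a cutoff of 1.1-fold, 3 of the 10 were higher and 2 lower, where 20.8% and 25.7% of all genes were. Of the 101 other genes of the pathway lists, 4 were higher and 16 lower at 1.2-fold, against 16 and 33 at 1.1-fold, 0 and 0 at 1.5-fold, and 2 and 8 without genes below the median level, where fewer genes are counted. No paired analysis was possible because each genotype has 1 array, and for the same reason no replicate could be left out. Dim probe sets limit the precision: the robust SD was 0.29 in the level bin of *Glp2r* and 0.13 in the brightest bin.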
